A study of Mus musculus with 6 samples.

Results

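The transcripts that make, store and break down gamma-aminobutyric acid (GABA), the main inhibitory transmitter of the brain, were followed in the hypothalamic paraventricular nucleus (PVN) after an electroconvulsive seizure (ECS). They are Gad1 and Gad2, the 2 glutamate decarboxylases that make GABA, Slc32a1, the transporter that loads it into synaptic vesicles, and Abat, the transaminase that breaks it down. Every probe set (the group of short probes that reads 1 transcript on the array) whose only gene symbol is one of these names was taken. This gave 7 probe sets of 4 genes, out of 12393 genes with a probe set of a single symbol. All 7 met the signal filter, which asks that a probe set lie at or above the median of its own array on at least 2 of the 6 arrays, and which 12662 of 22626 probe sets met.

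C57Bl/6 mice under isoflurane were given 1 shock through ear clips (25 mA over 1 s, as 100 pulses of 0.5 ms), and tissue was taken 2 h (ECS 2 h, 2 arrays) or 6 h later (ECS 6 h, 2 arrays). Sham mice were anesthetized and handled alike without current and were sampled at 2 h (sham, 2 arrays). There was no sham at 6 h, so the comparison of 6 h with sham also holds 4 h of clock time. Age and sex are not given in the labels used here, and they name no transgene. Each array read a pool of 2 to 3 animals cut by laser from 7 µm sections, and the experiment was run on 2 sets of animals. The samples are pieces of tissue, in which fewer GABA cells and less transcript per cell cannot be told apart.

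GABA is made from glutamate in 1 step. The product of Gad1 (GAD67) is found throughout the neuron and supplies most of its GABA, whereas the product of Gad2 (GAD65) sits at nerve endings and serves release. Slc32a1 (VGAT) fills vesicles with GABA or glycine, and Abat, an enzyme of mitochondria in neurons and astrocytes, starts the route by which GABA is returned to metabolism. The output neurons of the PVN, among them those for oxytocin, vasopressin and the stress hormones, are largely glutamatergic and carry Slc17a6, a vesicular glutamate transporter. They are held in check by GABA, much of it from neurons that surround the nucleus.

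Factors that respond to neuronal activity, such as Fos (AP-1), Egr1 and CREB, act on short motifs of DNA. The stretches just upstream of 3 of the 4 genes are therefore shown. They are the 250 bases before the annotated start in RefSeq (GRCm38.p6), all on the plus strand, at chr2:70561879-70562128 for Gad1, chr2:22622077-22622326 for Gad2 and chr2:158610508-158610757 for Slc32a1. Capitals mark a match to the CREB core, the AP-1 or the EGR motif.
Gad1: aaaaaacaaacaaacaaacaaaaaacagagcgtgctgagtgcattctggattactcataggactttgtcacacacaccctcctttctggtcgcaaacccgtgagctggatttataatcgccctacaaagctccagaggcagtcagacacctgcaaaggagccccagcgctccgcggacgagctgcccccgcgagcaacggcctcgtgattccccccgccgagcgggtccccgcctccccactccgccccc
Gad2: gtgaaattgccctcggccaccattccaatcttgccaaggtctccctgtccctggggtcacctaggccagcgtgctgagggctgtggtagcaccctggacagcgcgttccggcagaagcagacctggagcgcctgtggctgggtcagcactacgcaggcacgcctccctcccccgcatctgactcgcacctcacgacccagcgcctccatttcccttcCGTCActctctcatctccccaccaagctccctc
Slc32a1: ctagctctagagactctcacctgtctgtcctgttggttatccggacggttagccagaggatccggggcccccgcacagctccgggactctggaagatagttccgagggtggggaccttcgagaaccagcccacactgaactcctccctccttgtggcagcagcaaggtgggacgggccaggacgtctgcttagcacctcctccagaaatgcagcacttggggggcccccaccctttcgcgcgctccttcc
The full CREB motif TGACGTCA, the AP-1 motif TGANTCA and the EGR motif GCGNGGGCG matched on neither strand in any of the 3 windows. The CREB core TGACG, which is part of the full motif, matched once, in Gad2, on the minus strand, and that match begins 33 bases before the start. Over the 32851 windows of the same length in the table, 1.55% held the full CREB motif, 17.8% its core, 6.75% the AP-1 motif and 4.7% the EGR motif. These are matches of letters and not sites of binding. The share of G and C was 58.0% for Gad1, 64% for Gad2 and 62.4% for Slc32a1, against a median of 52.4% over all windows.

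The arrays carried the PVN hormones, with Oxt (oxytocin) and Avp (vasopressin) above the array median on all 6. Slc17a6 and Sim1, a factor that specifies the nucleus, were above it on all 6 as well, and Otp, another such factor, on 0. Fos, which neurons switch on with activity, had log2 signals of 7.25 and 6.81 at 2 h against 5.04 and 5.02 in sham. Replicate 1 of ECS 6 h had a 3′ to 5′ signal ratio of Gapdh of 14.1, against 6.43 to 10.5 on the other 5 arrays, and the lowest mean rank correlation with the rest, 0.887 against 0.906 to 0.919. Its ratio for Actb (beta-actin) did not stand out, at 0.764 against 0.562 to 0.771 on the other 5 arrays. The 6 h changes of the GABA genes and the 6 h medians of the gene lists against sham are given with and without this array where they moved by over 1.5 times or turned. As deposited, the median signal was 25.2 to 28.2 on the arrays of replicate 1 and 32.6 to 40.8 on those of replicate 2, and the arrays were therefore brought to a common distribution. Levels below are log2(signal + 16), with a floor of 4, and are followed for 1 probe set at a time, since probe sets differ in how brightly they read.

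Of the synthesis enzymes, Gad1 had lower estimates relative to sham than Gad2 at both times and on both of its probe sets, but no difference passed the test. Without replicate 1 of ECS 6 h the order at 6 h turned, with Gad1 at -0.25 on 1416561_at and 0.57 on 1416562_at and Gad2 at -0.39. On probe set 1416561_at the log2 signal was 7.21 and 8.80 at 2 h, 7.22 and 9.02 at 6 h, and 8.84 and 9.71 in sham. Both 2 h arrays lay below both sham arrays, while the 6 h arrays overlapped sham, and in all 3 groups replicate 1 was the dimmer array. The mean was 8.0 ± 1.12 at 2 h, 8.12 ± 1.27 at 6 h and 9.28 ± 0.62 in sham (SD, n = 2 each). The order of the groups was therefore sham, 6 h, 2 h, and neighbours in it did not differ beyond the spread of their arrays.

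The log2 change of 1416561_at against sham, from limma (a linear model of all 6 arrays that shares information on spread between probe sets), was -1.27 ± 0.62 (SE) at 2 h. That is 2.42-fold lower, with a 95% interval of -2.65 to 0.10 (adjusted p = 1). At 6 h it was -1.15 ± 0.62, or 2.23-fold lower (-2.53 to 0.22, adjusted p = 1). Between arrays of the same replicate number the ECS pool lay below the sham pool. The change was -1.63 in replicate 1 and -0.92 in replicate 2 at 2 h, and -1.62 and -0.69 at 6 h. Replicate numbers were read as the 2 runs of the experiment, which the labels do not state number by number. With the replicate number as a block the unadjusted p was 0.00135 at 2 h and 0.00264 at 6 h, while the adjusted p was 0.307 and 0.675, so neither was called. Single arrays moved the size: the change at 2 h was -0.48 without ECS 2 h replicate 1 and -2.06 without ECS 2 h replicate 2, and at 6 h it was -0.25 without ECS 6 h replicate 1.

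Probe set 1416562_at of Gad1 is dim. It reached the array median on 2 arrays, replicate 2 of ECS 6 h and replicate 2 of sham, and passed the filter through these. Its log2 signal was 5.02 and 5.54 at 2 h, 4.25 and 6.29 at 6 h, and 5.13 and 6.32 in sham, so that all groups overlapped and replicate 1 was again the dimmer array of each. The change was -0.44 ± 0.68 at 2 h and -0.45 ± 0.68 at 6 h (adjusted p = 1 for both, limma), or 0.57 at 6 h without replicate 1 of ECS 6 h.

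Gad2 lay close to sham and varied little. Its only probe set, 1421978_at, had log2 signals of 8.43 and 8.40 at 2 h, 8.53 and 8.22 at 6 h, and 8.44 and 8.79 in sham. The 2 h arrays lay just below both sham arrays, by 0.013 for the nearest pair, and the 6 h arrays overlapped sham. Means ran from 8.37 ± 0.22 at 6 h through 8.42 ± 0.02 at 2 h to 8.62 ± 0.25 in sham (SD, n = 2 each). The change was -0.20 ± 0.30 at 2 h (95% interval -0.88 to 0.47) and -0.24 ± 0.30 at 6 h (-0.92 to 0.43, adjusted p = 1 for both, limma). As ratios to sham the intervals run from 0.545 to 1.39 at 2 h and from 0.53 to 1.35 at 6 h, so a shift of Gad2 as large as the one estimated for Gad1 on 1416561_at lies outside them. The difference between the 2 genes was itself not tested. Without replicate 1 of ECS 6 h the 6 h change of Gad2 was -0.39, and without replicate 2 it was -0.087.

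**Figure D1:**
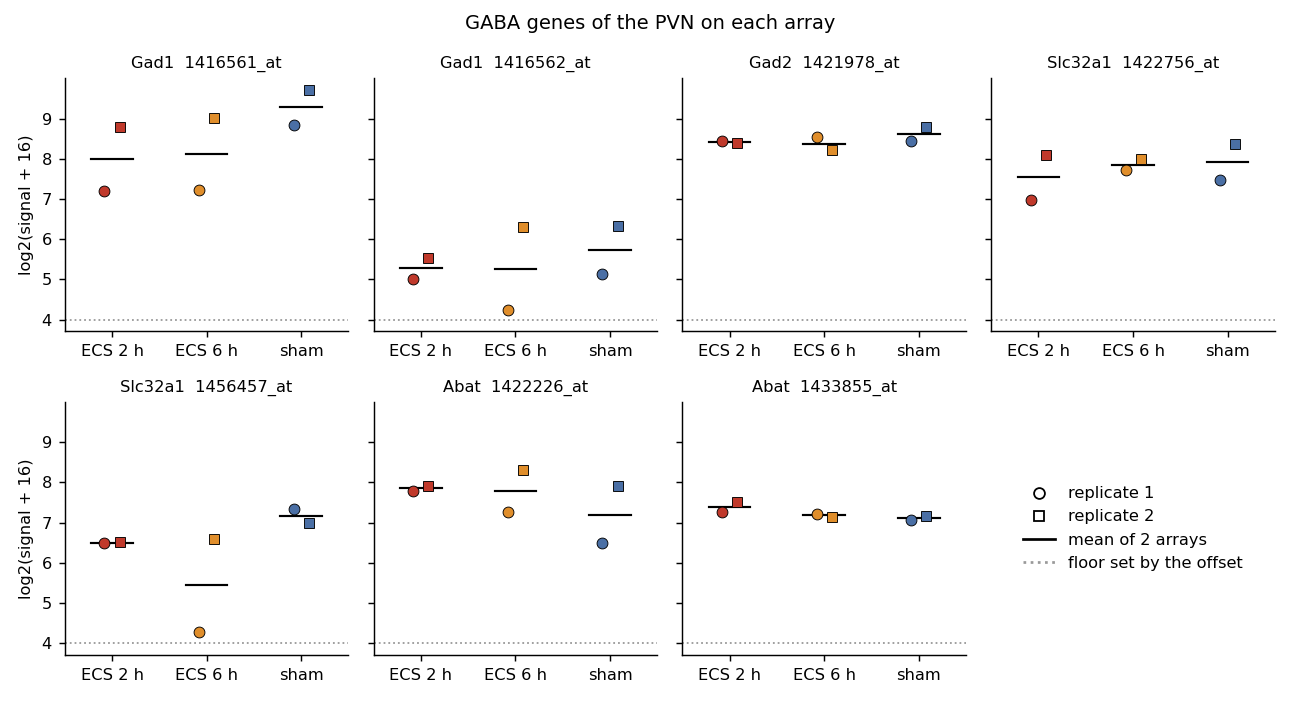
Log2(signal + 16) of each of the 7 GABA probe sets on each array (y axis), by group (x axis), with replicate 1 as a circle, replicate 2 as a square, the mean as a bar and the floor of 4 as a dotted line. Gad1 1416561_at shows replicate 1 below replicate 2 in every group, and Slc32a1 1456457_at has 1 array, replicate 1 of ECS 6 h at 4.28, near the floor.

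The 2 probe sets of Slc32a1 did not give the same picture. On 1422756_at the log2 signal was 6.98 and 8.11 at 2 h, 7.71 and 8.0 at 6 h, and 7.47 and 8.37 in sham, and all groups overlapped. The mean was 7.54 ± 0.80 at 2 h, 7.85 ± 0.20 at 6 h and 7.92 ± 0.64 in sham (SD, n = 2 each), an order in which neighbours did not differ beyond their spread. The change was -0.38 ± 0.45 at 2 h (95% interval -1.38 to 0.62) and -0.07 ± 0.45 at 6 h (-1.06 to 0.93, adjusted p = 1 for both, limma). The sign at 2 h turned to 0.07 without sham replicate 2 and to 0.19 without ECS 2 h replicate 1, and at 6 h it turned to 0.077 without ECS 6 h replicate 1 and to 0.39 without sham replicate 2.

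On 1456457_at the log2 signal was 6.51 and 6.51 at 2 h, 4.28 and 6.60 at 6 h, and 7.35 and 6.98 in sham. Here every ECS array lay below both sham arrays. The order of the means was sham at 7.17 ± 0.26, 2 h at 6.51 ± 0.003 and 6 h at 5.44 ± 1.64 (SD, n = 2 each), and the 2 h value lay inside the range of the 6 h arrays. The change was -0.66 ± 0.63 at 2 h (adjusted p = 1, limma) and -1.72 ± 0.63 at 6 h, or 3.31-fold lower (95% interval -3.11 to -0.34, adjusted p = 1). The 6 h value rests on replicate 1 of ECS 6 h, whose deposited signal of 3.0 stood against 60.5 to 136.9 on the other 5 arrays, and it was -0.55 without that array. With an offset of 1 in place of 16 it was -2.75, and with 64 it was -0.96. Between arrays of the same replicate number the change at 6 h was -3.07 in replicate 1 and -0.38 in replicate 2, and at 2 h it was -0.85 and -0.47.

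The mean of Abat lay above that of sham at both times on both of its probe sets, without passing the test. On 1422226_at the log2 signal was 7.80 and 7.91 at 2 h, 7.27 and 8.30 at 6 h, and 6.49 and 7.92 in sham. Sham replicate 1 was the dimmest of the 6 arrays, and both ECS groups overlapped sham. The mean was 7.85 ± 0.08 at 2 h, 7.79 ± 0.73 at 6 h and 7.20 ± 1.01 in sham (SD, n = 2 each), and neighbours in this order did not differ beyond their spread. The change was 0.65 ± 0.50 at 2 h (95% interval -0.46 to 1.76) and 0.59 ± 0.50 at 6 h (-0.52 to 1.69, adjusted p = 1 for both, limma). Without sham replicate 1 these values were -0.06 and -0.13, and without sham replicate 2 they were 1.36 and 1.30. The 6 h value was also 1.08 without ECS 6 h replicate 1 and 0.068 without ECS 6 h replicate 2.

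The other probe set of Abat, 1433855_at, was the steadiest of the 7 across all arrays. Its log2 signal was 7.26 and 7.53 at 2 h, 7.21 and 7.15 at 6 h, and 7.06 and 7.17 in sham. Both 2 h arrays lay above both sham arrays, and the 6 h arrays overlapped sham. The mean was 7.39 ± 0.19 at 2 h, 7.18 ± 0.04 at 6 h and 7.11 ± 0.07 in sham (SD, n = 2 each). The change was 0.28 ± 0.34 at 2 h (95% interval -0.48 to 1.03) and 0.07 ± 0.34 at 6 h (-0.69 to 0.82, adjusted p = 1 for both, limma), or 0.035 without ECS 6 h replicate 1.

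Between 6 h and 2 h no GABA gene passed the test. Gad1 stood at 8.12 at 6 h and 8.0 at 2 h on 1416561_at, a log2 change of 0.12 ± 0.62 (95% interval -1.26 to 1.5). Slc32a1 on 1456457_at had the largest estimate in size, -1.07 ± 0.63 (-2.45 to 0.32), while 1422756_at was at 0.31 ± 0.45. Gad2 was at -0.04 ± 0.30 and Abat at -0.06 ± 0.50 and -0.21 ± 0.34. The adjusted p was 0.999 for all 7 in limma. Without replicate 1 of ECS 6 h both probe sets of Gad1 were at 1.0, Gad2 was at -0.19, Slc32a1 at 0.10 on 1456457_at and 0.45 on 1422756_at, and Abat at 0.44 on 1422226_at and -0.24 on 1433855_at.

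**Figure D2:**
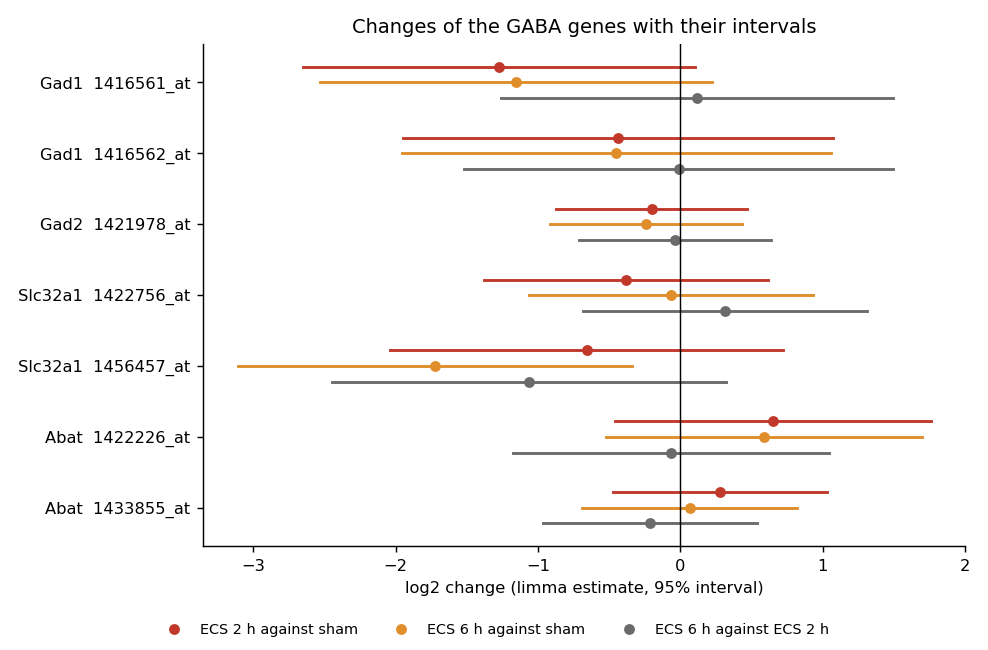
Log2 change of the 7 GABA probe sets (x axis) in the 3 comparisons, as the limma estimate (point) with its 95% interval (line). The interval of Slc32a1 1456457_at at 6 h against sham, -3.11 to -0.34, is the only one of the 21 that does not reach 0.

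Counted together, 0 of the 7 probe sets were called in each comparison at an adjusted p under 0.05, where limma called 0% of all 12662. Without adjustment, a p under 0.05 was reached by 0 of 7 at 2 h against sham (4% of all), 1 of 7 at 6 h against sham (3.75% of all) and 0 of 7 at 6 h against 2 h (3.46% of all). With the replicate block the unadjusted counts were 1 of 7 at 2 h (6.52% of all) and 2 of 7 at 6 h (6.26% of all), and 0 of 7 at 6 h against 2 h (5.69% of all), while 0 of 7 passed after adjustment at any time (0.0316% of all at 2 h, 0% elsewhere). Below sham at 2 h were 5 of 7, namely all probe sets of Gad1, Gad2 and Slc32a1 (49.1% of all), and above it both of Abat (50.9% of all), and at 6 h the split was again 5 (50.4%) and 2 (49.6%). Between 6 h and 2 h 5 of 7 were lower (51% of all) and 2 higher (49%), with 1 of 7 lower without overlap (15% of all) and 0 higher (14.4%). At least 2-fold lower were 1 of 7 at 2 h (2.01% of all), 2 of 7 at 6 h (2.24%) and 1 of 7 at 6 h against 2 h (1.95%). In 3 of the 7 both 2 h arrays were lower than both sham arrays (16.4% of all), and in 1 they were higher (16.3%). At 6 h against sham these counts were 1 lower (15.3% of all) and 0 higher (14.8%). The median change of the 7 was -0.38 at 2 h and -0.24 at 6 h, against 0.0077 and -0.0033 over all probe sets. Both comparisons use the same sham arrays, and probe sets of 1 gene share their transcripts.

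Of the plasma membrane transporters that take up GABA, Slc6a13, found in the brain's coverings and vessels, had deposited signals of 9.6 and 14.3 at 2 h, 3.4 and 2.8 at 6 h, and 25.8 and 25.5 in sham. It reached the array median on 1 array, and Slc6a12 on 0, so neither was tested.

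The supply of glutamate and the enzymes around GABA showed no shared direction. Of 12 tested genes that carry or convert glutamate and related substrates, 5 lay above and 7 below sham at 2 h, with a median of -0.13, and 1 had an unadjusted p under 0.05 (4% of all probe sets). That gene was Slc1a3, a glial glutamate transporter (0.59 ± 0.25, adjusted p = 1, limma), whereas Slc1a2, the other main glial one, was at -0.53 ± 0.42. At 6 h 3 lay above and 9 below, with a median of -0.16 (-0.062 without ECS 6 h replicate 1), among them Slc1a2 (-0.85 ± 0.42) and Glud1, glutamate dehydrogenase (-0.26 ± 0.21). Aldh9a1, an enzyme of the side route from putrescine to GABA, was at -0.45 ± 0.40 at 2 h and -0.29 ± 0.40 at 6 h, and Pdxk, which makes the cofactor of the decarboxylases, at -0.24 ± 0.28 at 2 h.

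Peptides and calcium-binding proteins that mark kinds of GABA neuron were split. Of 12 tested, 7 lay above and 5 below sham at 2 h, with a median of 0.12, and 4 had an unadjusted p under 0.05 (4% of all probe sets). These 4 were all lower: Pvalb (parvalbumin) at -2.43 ± 0.64, Cck (cholecystokinin) at -2.26 ± 0.56, Npy (neuropeptide Y) at -1.98 ± 0.55 and Vip (vasoactive intestinal peptide) at -1.63 ± 0.58, with adjusted p of 0.692 or more in limma. Their log2 means at 2 h, in this order, were 5.28, 4.61, 4.69 and 4.40, over a floor of 4. In sham they were 7.71, 6.87, 6.67 and 6.04. A gene bright on the 2 sham arrays alone meets the filter, which favours lower values after ECS among such genes. At 6 h the split was again 7 and 5, with a median of 0.21. Pvalb was at -2.71 ± 0.64, Cck at -1.74 ± 0.56, Npy at -1.40 ± 0.55 and Reln (reelin), a secreted protein of cortical interneurons, at -0.59 ± 0.30. Other members, named after their values were seen, lay above sham: 3 did so without overlap at 2 h and 5 at 6 h, against 4 and 5 below it. Of all probe sets, 16.3% lay above sham without overlap at 2 h and 14.8% at 6 h, and 16.4% and 15.3% lay below it. Sst (somatostatin) was at 0.75 ± 0.34 at 2 h and 0.59 ± 0.34 at 6 h, the calcium-binding proteins Calb1 at 0.31 ± 0.26 and 0.31 ± 0.26 and Calb2 at 0.35 ± 0.32 and 0.36 ± 0.32, and Penk (enkephalin) and Gal (galanin) at 0.68 ± 0.37 and 0.57 ± 0.37 at 6 h, none of which passed the test. Some of these peptides are also made by cells other than GABA neurons. Of the 15 transcription factors listed for GABA neurons, 11 were on the array and 2 were tested, Isl1 (-0.66 ± 0.63 at 2 h and -0.82 ± 0.63 at 6 h) and Dlx1 (-0.12 ± 0.44 and -0.38 ± 0.44). Isl1 was dim, with log2 means of 4.95 at 2 h, 4.79 at 6 h and 5.61 in sham.

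On the receiving side, 9 genes of GABA receptors and their anchors were tested, of which 6 lay above and 3 below sham at 2 h (median 0.13) and 4 above and 5 below at 6 h (median -0.013, or 0.15 without ECS 6 h replicate 1). Gabrd, the delta subunit of receptors outside the synapse, was at -1.37 ± 0.45 at 2 h (adjusted p = 1, limma) and -0.63 ± 0.45 at 6 h. The log2 mean of Gabrd was 4.99 at 2 h and 5.73 at 6 h, against 6.36 in sham, over a floor of 4. Gabbr1, a subunit of the GABA-B receptor, was at -0.34 ± 0.18 at 2 h. Gphn (gephyrin), which anchors synaptic receptors, was at 0.32 ± 0.41 at 2 h and 0.36 ± 0.41 at 6 h.

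Most markers of neurons in general and of cortex and hippocampus lay below sham, as Gad1 did. Of 21 neuron markers 17 lay below sham at 2 h (median -0.33) and 16 at 6 h (median -0.13, or -0.072 without ECS 6 h replicate 1), among them Snap25 and Syt1 of the vesicle fusion machinery (-0.46 ± 0.12 and -1.46 ± 0.45 at 2 h). Their summed signal was 21970 to 22090 at 2 h and 22850 to 25630 at 6 h, against 27100 to 27220 in sham. Of 12 genes listed for cortex and hippocampus, 9 were on the array and 5 were tested, and all 5 lay below sham at both times (median -2.08 at 2 h and -1.0 at 6 h, or -0.21 at 6 h without replicate 1 of ECS 6 h). Camk2a, a synaptic kinase, was at -2.74 ± 0.53, Tbr1, a factor of cortical glutamate neurons, at -2.39 ± 0.56 and Nrgn, neurogranin, at -2.08 ± 0.59 at 2 h, and their list's summed signal was 141 to 348 at 2 h and 275 to 783 at 6 h, against 913 to 1044 in sham. Bcl11b, Egr3 and Prox1 of this list were below the array median on all 6 arrays. A gene bright on the 2 sham arrays alone meets the filter, which favours lower values after ECS among such genes. The log2 means of Tbr1 and Nrgn were 4.35 and 4.84 at 2 h, against 6.74 and 6.92 in sham. How far the filter shaped the count of 5 was not tested. Slc17a6, the glutamate transporter of the PVN's own neurons, was at 0.38 ± 0.35 at 2 h and 0.43 ± 0.35 at 6 h, Oxt at 0.16 ± 0.19 and 0.42 ± 0.19, and Avp at 0.26 ± 0.23 and 0.33 ± 0.23. Among the 5 tested genes listed for glutamate neurons, Slc17a6 was the only gene above sham, and 4 lay below it at both times. The median of this list was -0.33 at 2 h and -0.47 at 6 h, or -0.14 at 6 h without ECS 6 h replicate 1. Of the genes named in this paragraph, limma called 1 with the replicate block, Camk2a at 2 h (adjusted p = 0.0434), and 0 without it (adjusted p = 0.513 for Camk2a). Over all probe sets 0.0316% were called at 2 h with the block and 0% without it. Of 12 astrocyte markers 6 lay above and 6 below sham at 2 h (median 0.04), and of 8 oligodendrocyte markers 2 above and 6 below (median -0.42). At 6 h the astrocyte markers were split 5 and 7 (median -0.02, or -0.075 without ECS 6 h replicate 1), and 7 of the 8 oligodendrocyte markers lay below sham (median -0.41), among them the myelin genes Mbp at -0.64 ± 0.19 and Cldn11 at -1.09 ± 0.37, both with adjusted p = 1 in limma. The summed signal of the oligodendrocyte markers was 2750 to 2933 at 6 h, against 3685 to 4042 in sham. Of 9 tested PVN neuron genes, 6 lay above sham at 2 h (median 0.16) and 8 at 6 h (median 0.19). Of 6 tested genes listed for GABA neurons of striatum and amygdala, 3 lay above and 3 below at 2 h (median -0.013). At 6 h 2 of them lay above and 4 below (median -0.11, or -0.19 without ECS 6 h replicate 1). Of 3 tested thalamus genes, 2 lay above sham at both times (medians 0.12 and 0.36). The part of these lists in the values of Gad1 was not tested.

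**Figure D3:**
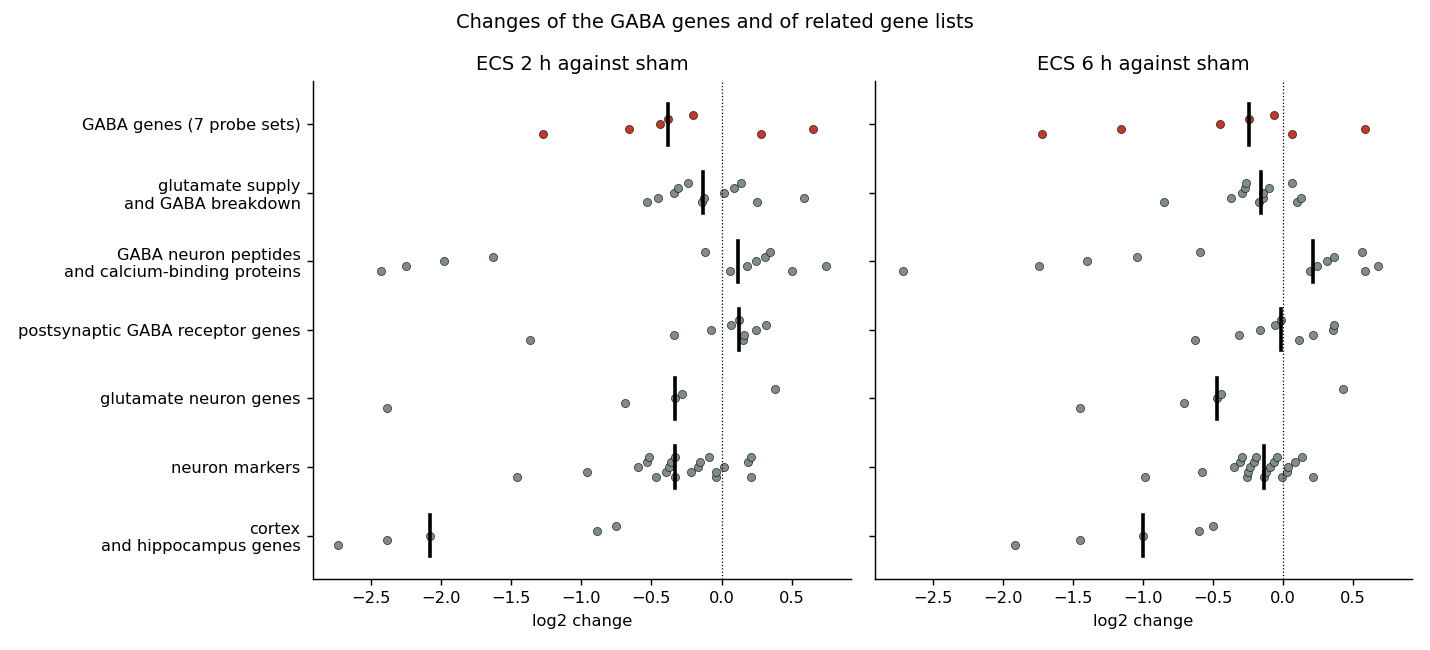
Log2 change against sham (x axis) at 2 h (left) and 6 h (right) of the 7 GABA probe sets (red) and of the tested genes of 6 lists (grey, 1 point per gene, with the median as a bar). The GABA probe sets spread from -1.27 to 0.65 at 2 h, and the 5 cortex and hippocampus genes all lie below 0. A gene bright on the 2 sham arrays alone meets the signal filter, which favours values below 0 among such genes. A gene bright on the 2 arrays of an ECS group alone meets it too, which favours values above 0 among those.

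The probe sets whose course over the 6 arrays was most like that of each member were found by Pearson correlation of log2 signals among the 7331 other tested genes, as a description that the shared brightness and run of the arrays can also shape. Closest to Gad1 (1416561_at) were Pfkm and Pgk1, enzymes of glycolysis (r = 0.98 for both), and Ywhab, a 14-3-3 protein (0.98), with 133 genes above 0.9. Gad2 had fewer close genes, 17 above 0.9, led by Snrnp25 (0.97) of the minor spliceosome and Trappc13 (0.96) of vesicle traffic. For Slc32a1 (1422756_at) they were Bloc1s3 (0.99), part of a complex of lysosome-related organelles, and Trmt10c (0.98), a mitochondrial tRNA methyltransferase, and for Abat (1422226_at) Supt20 (0.997) and Trmt10b (0.98). None of the 4 sets of 5 nearest genes held another of the members.

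**Figure D4:**
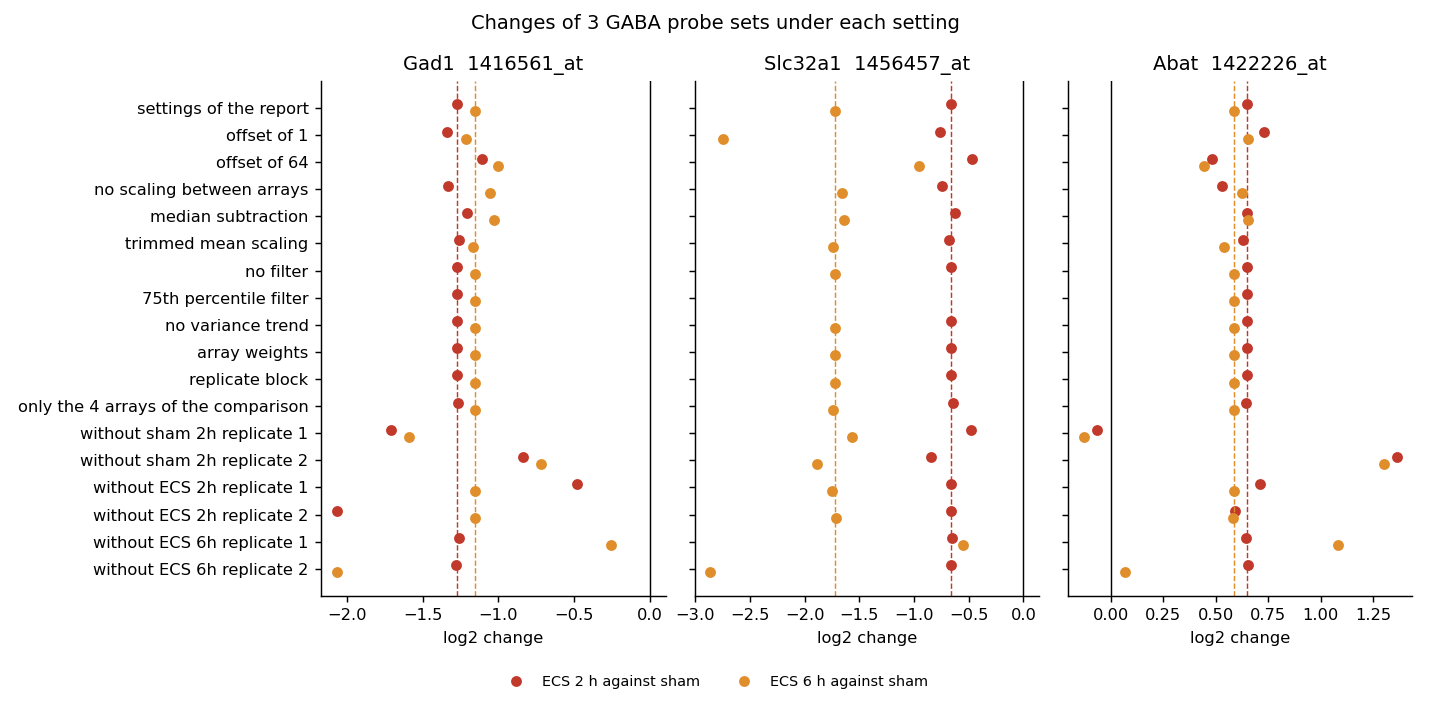
Log2 change against sham (x axis) of Gad1 1416561_at, Slc32a1 1456457_at and Abat 1422226_at at 2 h (red) and 6 h (orange) under each setting (y axis), with dashed lines at the values of the report. Gad1 stays below 0 under each setting shown, from -2.07 to -0.25, Slc32a1 at 6 h spans -2.86 to -0.55, the values without replicate 2 and without replicate 1 of ECS 6 h, and Abat spans -0.13 to 1.36, with points near or below 0 when sham replicate 1 or, at 6 h, ECS 6 h replicate 2 is left out. Settings of filter, variance trend, array weights and replicate block repeat the value of the report, since they alter only the p-value.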

How the data were processed

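The deposited table holds MAS5 intensity values on a linear scale for 22690 probe sets, made by the authors per the submitters' processing notes. Their detection calls were not used here. Per the labels' protocols, 2 ng of total RNA was amplified and 5 µg of cDNA hybridised. The 64 control probe sets were left out. Symbols came from the array annotation (20380 probe sets with 1 symbol, 691 with several, 1555 with none), and 20351 matched RefSeq by Entrez identifier with 0 renamed.

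Array medians differ, so the intensity values were quantile normalized, an offset of 16 was added and log2 was taken, which shrinks changes of dim probe sets. The 12662 probe sets at or above their array's median on at least 2 arrays were compared with limma 3.58.1 in R 4.3.3 (3 group means, variance trend, prior degrees of freedom 7.64, residual 3), two-sided, with Benjamini-Hochberg adjustment over all of them at 0.05. An exact permutation of 2 against 2 arrays cannot go below p = 0.333 and was not used. The number of arrays limits the precision. The procedure was tested on simulated data.

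Each listed gene is its brightest tested probe set. Named are the members, up to 4 genes per list by smallest p, the 5 genes most like each member, and Oxt, Avp, Slc17a6, Snap25 and Fos as checks; Sim1, Otp, Slc6a12, Slc6a13, Sst, Calb1, Calb2, Penk and Gal were added after their values were seen. Members and lists were chosen with earlier results of these data known. Replicate numbers were read as the 2 runs: over all tested probe sets, same-numbered arrays deviated from their group means together (r = 0.228 for ECS 2 h with sham, 0.151 for ECS 2 h with ECS 6 h and 0.185 for ECS 6 h with sham), so a replicate block was an alternative beside the offset, scaling, filter, trend, array weights, subset fits and leaving out each array.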

Additional observations from a re-analysis of the deposited data

How the results depend on the processing

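No GABA probe set was called under any alternative run, and of 355 values of the 21 probe set changes recomputed under the alternatives 331 kept their direction and 24 did not. The alternatives of filter, variance trend, array weights and replicate block altered the p-values and not the change itself. Their values could not turn and are counted among the 331. Leaving out an array of the group outside a comparison moved its change only slightly. Gad1 on 1416561_at stayed below sham under all 18 alternatives, from -2.06 to -0.48 at 2 h (adjusted p 0.307 to 1) and from -2.07 to -0.25 at 6 h (0.297 to 1), and so did Slc32a1 on 1456457_at under 16, from -0.84 to -0.47 and from -2.86 to -0.55 (adjusted p 0.0653 to 1 at 6 h, the lowest without ECS 6 h replicate 2). Directions turned as follows, with the cause not tested. Leaving out single arrays moved the change against sham of Slc32a1 on 1422756_at between -0.94 and 0.19 at 2 h and between -0.52 and 0.39 at 6 h, that of Abat on 1422226_at between -0.064 and 1.36 and between -0.13 and 1.30, and that of Gad1 on 1416562_at between -1.07 and 0.57 at 6 h. Between 6 h and 2 h the ranges were -0.79 to 1.00 and -0.28 to 1.00 for Gad1, -0.19 to 0.12 for Gad2, -0.26 to 0.88 and -2.20 to 0.10 for Slc32a1, and -0.59 to 0.44 for Abat on 1422226_at. With the values as deposited Slc32a1 on 1422756_at was at 0.011 at 6 h against sham, and at 6 h against 2 h Gad1 on 1416562_at was at 0.093, Gad2 at 0.17 and Abat on 1422226_at at 0.096. Median subtraction gave 0.036, and 0.072 and 0.0022 for Gad2 and Abat; an offset of 64 gave 0.077 for Gad1 on 1416562_at, and the mean over both probe sets -0.38 for Slc32a1. These scalings moved the median of all probe sets, by up to 0.16 at 6 h against 2 h as deposited and 0.10 at 6 h against sham with median subtraction. With arrays left out, the 2 h change ran from -0.49 to 0.25 for Dlx1, -0.029 to 0.80 for Slc17a6, -0.56 to 0.086 for Pdxk, -1.16 to 0.14 for Isl1 and -1.79 to 0.023 for Lmo4, and the 6 h change from -0.92 to 0.18 for Slc38a1, -0.77 to 0.13 for Gabrb1, -0.83 to 0.24 for Aldh9a1 and -0.090 to 0.78 for Gphn. Over all probe sets limma called 1 at 2 h with the values as deposited, 1 with median subtraction, 2 with array weights, 4 with the replicate block and 7 with only the 4 arrays compared, and with arrays left out 0 to 10 at 2 h, 0 to 6 at 6 h and 0 to 3 at 6 h against 2 h. The replicate block called no GABA probe set.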
